A study of Mus musculus with 663 samples.

Results

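The insulin-like growth factor (IGF) genes described here are 10 of the 43320 gene names used from the deposited single-cell table. They are the ligand gene Igf1, the receptor genes Igf1r and Igf2r, the binding protein genes Igfbp2, Igfbp3, Igfbp4, Igfbp5, Igfbp6 and Igfbp7, and the protease gene Pappa. They were chosen by name as members of 1 pathway. All 10 were present in the table, and all 10 reached a mean of at least 1 RPKM (reads scaled to gene length in kilobases and to the depth of the cell) in at least 1 capture.

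The cells came from gonads labelled XX of mice of a mixed background. Each carried the NR5A1-eGFP reporter, a green fluorescent protein driven by a gene of the gonadal somatic lineage. Live eGFP-positive cells were sorted and captured as single cells, so cells without the reporter were not sampled, and all stages carried the same reporter with no treatment. There were 71 cells in 1 capture at E10.5 (stages before birth are given as embryonic days, E), 106 in 2 captures at E11.5, 163 in 3 captures at E12.5, 106 in 2 at E13.5, 95 in 2 at E16.5 and 121 in 2 at postnatal day 6 (P6), or 662 cells in 12 captures. A capture is 1 loading of the microfluidic chip and is the replicate in all tests. The captures of E10.5, E11.5 and E13.5 and the first and second of E12.5 were in the first of 2 sequencing series. Those of E16.5 and P6 and the third of E12.5 were in the second. Only E12.5 had captures in both, so raw differences between stages of different series cannot be told apart from series.

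IGF1 is a secreted hormone that binds the receptor tyrosine kinase encoded by Igf1r and promotes growth and survival of cells. Igf2r encodes a receptor without kinase activity that takes up IGF2 and delivers it to lysosomes. The binding proteins hold IGFs outside the cell with high affinity, except that of Igfbp7, whose affinity is low, and pregnancy-associated plasma protein A, encoded by Pappa, cuts IGFBP4 and IGFBP5 and thereby frees IGF. In the mouse ovary, granulosa cells of growing follicles are a known source of IGF1. Foxl2 encodes a transcription factor of pregranulosa and granulosa cells, and Nr2f2 one of interstitial and stromal cells.

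The sequences just before the starts of 4 of these genes are shown because the results turn on them: Igf1 was the member whose level passed the test, Igfbp5 was the most abundant binding protein transcript at most stages, Igfbp2 is its neighbour on chromosome 1, and Igfbp7 was detected strongly in few cells before P6. RefSeq (GRCm38.p6) gave 250 bases upstream of a start for 9 of the 10 members, in 10 entries, and each sequence below runs 5′ to 3′ on the gene's strand. The Igf1 stretch is chr10:87860861-87861110 on the plus strand, the Igfbp2 stretch chr1:72824230-72824479 on the plus strand, the Igfbp5 stretch chr1:72874866-72875115 on the minus strand and the Igfbp7 stretch chr5:77408046-77408295 on the minus strand. Capitals mark matches, on either strand, to a TATA box (TATAAA), a nuclear receptor half-site (AGGTCA), a forkhead core (TAAACA) or a GC box (GGGCGG).
Igf1: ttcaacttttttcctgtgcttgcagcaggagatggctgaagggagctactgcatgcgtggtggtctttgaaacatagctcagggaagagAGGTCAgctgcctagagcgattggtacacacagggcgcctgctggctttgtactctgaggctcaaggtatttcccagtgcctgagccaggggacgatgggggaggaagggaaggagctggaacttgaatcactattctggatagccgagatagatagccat
Igfbp2: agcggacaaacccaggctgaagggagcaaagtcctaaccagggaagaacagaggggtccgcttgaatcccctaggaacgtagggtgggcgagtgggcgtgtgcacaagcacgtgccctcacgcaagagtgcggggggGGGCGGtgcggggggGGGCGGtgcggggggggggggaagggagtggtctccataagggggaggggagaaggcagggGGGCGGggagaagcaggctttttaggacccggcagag
Igfbp5: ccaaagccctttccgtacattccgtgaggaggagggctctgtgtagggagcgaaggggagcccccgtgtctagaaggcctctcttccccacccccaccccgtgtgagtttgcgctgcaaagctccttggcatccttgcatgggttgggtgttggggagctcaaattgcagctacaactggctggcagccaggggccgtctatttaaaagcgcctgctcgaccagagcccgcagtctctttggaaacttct
Igfbp7: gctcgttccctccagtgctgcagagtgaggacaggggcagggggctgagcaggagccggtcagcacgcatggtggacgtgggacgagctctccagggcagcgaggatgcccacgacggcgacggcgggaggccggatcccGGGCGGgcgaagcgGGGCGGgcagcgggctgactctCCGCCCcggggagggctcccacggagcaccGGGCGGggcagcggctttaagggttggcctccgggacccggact

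The Igf1 stretch held 1 AGGTCA, starting 161 bases before the start, and no other searched motif. AGGTCA was found in 14.02% of the 32851 upstream stretches of the table and in 3 of the 10 member entries. The shown Igfbp2 stretch held 3 GC boxes and the Igfbp7 stretch 4, where 32.7% of all stretches held at least 1, and the Igfbp5 stretch held none of the 4 motifs. TATAAA was present in 12.4% of all stretches and 2 member entries, and TAAACA in 12.03% and 1 member entry. The Igf1 stretch was 52.8% G and C, the Igfbp5 stretch 58.8%. These matches describe letters in a window and were not tested against any measurement.

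The genes lie on 8 chromosomes (GENCODE vM21, an annotation of GRCm38): Igf1 at chr10:87858265-87937042, Igf1r at chr7:67952827-68233668, Igf2r at chr17:12682406-12769664, Igfbp2 at chr1:72824503-72852474, Igfbp3 at chr11:7206086-7213923, Igfbp4 at chr11:99041244-99054392, Igfbp5 at chr1:72857932-72874884, Igfbp6 at chr15:102144362-102149511, Igfbp7 at chr5:77349240-77408041 and Pappa at chr4:65124174-65357509. The RefSeq start of Igf1 used for the sequence lies inside the GENCODE gene, so it is 1 of several starts. Exons of Igfbp7 share 85 of their 1209 bases with exons of Polr2b on the opposite strand. Whether the counting used strand is not given in the sources used here, so low Igfbp7 values cannot be told apart from Polr2b reads. Airn, an RNA that runs antisense through Igf2r, has no exon overlap with it.

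All captures but the second at E12.5, that is 11, had median depths of 1.89 to 3.21 M reads per cell (M, mega), as judged from the value of 1 read in each cell, and median counts of 3640 to 7976 detected genes. The second E12.5 capture had a median of 0.148 M reads, at which 1 RPKM of Igfbp2, Igfbp3, Igfbp4, Igfbp5, Igfbp6 or Igfbp7 is less than 1 read. It also went against its XX label: 40 of its 53 cells had at least 1 RPKM of 1 of 4 Y-linked genes, against 1 of 609 cells in the other captures. Stage means at E12.5 include it unless stated. Without it the E12.5 means (n = 2) were 35.8 ± 22.5 RPKM for Igf1, 28.2 ± 8.83 RPKM for Igf2r, 11.46 ± 6.735 RPKM for Igfbp3, 49.6 ± 24.6 RPKM for Igfbp4, 106 ± 7.55 RPKM for Igfbp5, 7.50 ± 3.88 RPKM for Igfbp6, 4.34 ± 5.50 RPKM for Igfbp7 and 0.0632 ± 0.0552 RPKM for Pappa (SD), and those of Igf1r and Igfbp2 are given with their results. It had 1 Foxl2-positive cell and was not in the splits by class. The capture at E10.5 had summed mesonephros markers (Lhx1, Pax2, Pax8 and Cdh16) of 57.5 RPKM, against 0 to 10.98 RPKM in the other captures. Marker genes of erythroid cells were not in the rows used, with 0 of 3 present.

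Igf1 was the only member whose level differed between stages past the threshold, and it was highest at P6. Averaged over the cells of a capture it was 0.801 RPKM at E10.5, 24.9 and 41.9 RPKM at E11.5, 19.9, 9.65 and 51.7 RPKM at E12.5, 37.5 and 31.1 RPKM at E13.5, 98.6 and 125 RPKM at E16.5, and 206 and 178 RPKM at P6. The E10.5 capture lay below all others, the 9 captures between it and P6 lay between 9.65 and 125 RPKM, and both P6 captures lay above all of them. In a limma fit on log2(mean RPKM + 1) over the 12 captures, Igf1 was higher at E11.5 than at E10.5 by 4.21 ± 0.50 (log2, SE), with an adjusted p = 0.0156 over 19710 genes. In that comparison 191 genes were called at an adjusted p under 0.05 (0.969%), of which 19 were higher at E11.5 (0.0964%) and 172 lower (0.873%). E10.5 had 1 capture, so this difference rests on that capture, which also held the mesonephros markers named above in 3 of 4 genes at 1 RPKM or more, against 1 of 4 in each E11.5 capture. Their part in the Igf1 difference was not tested. The call was lost with genes required at 1 RPKM in 2 captures (adjusted p of 0.12), with no series term (0.0694), with no intensity trend (0.0634) and in 1 sequencing series alone (0.261). Of the 10 members 7 had a positive difference, with a median of 0.60, beside 0.00 over all genes.

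Over all 6 stages the F test gave Igf1 an adjusted p = 0.0407, with 271 of 19710 genes called (1.37%). Leaving out the E10.5 capture gave Igf1 an adjusted p of 0.31, and leaving out any 1 capture of E13.5, E16.5 or P6 gave 0.0573 to 0.0763. With cells scaled to the same total it was 0.0858, and of 20 alternative settings 9 kept the call. Between E11.5 and E13.5, and between E16.5 and P6, Igf1 did not pass the test. At P6 it was 0.78 ± 0.41 higher than at E16.5 on the log2 scale (SE), with an adjusted p of 0.653 (unadjusted p = 0.0981, limma), although both P6 captures exceeded both E16.5 captures. In that comparison 57 genes were called (0.289%), of which 40 were higher at P6 (0.203%). Summed granulosa markers (Amh, Hsd17b1, Inha, Fshr and Nr5a2) were 827 to 1916 RPKM in the P6 captures, against 19.6 to 24.6 RPKM in the E16.5 captures, and summed stroma markers were 1136 to 2133 RPKM, against 569 to 858 RPKM. Their part in the P6 values of Igf1 was not tested. At E13.5 against E11.5 no gene was called (0.0%), while 1042 of 19710 had an unadjusted p under 0.05 (5.29%). Median detected genes per cell were 4998 and 3640 in the P6 captures and 7976 at E10.5. RPKM values are relative to all reads of a cell, and the part of this decline in the values was not tested.

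The share of cells with Igf1 was highest at P6, and the level in those cells was highest at E16.5 and P6. Igf1 was at or above 1 RPKM in 3 of 71 cells at E10.5 (4.23%, exact 95% interval 0.88 to 11.9), and the mean share over captures was 47.2% ± 2.67 for E11.5, 42.03% ± 12.1 for the 3 captures of E12.5, 62.3% ± 8.01 for E13.5, 64.2% ± 9.48 for E16.5 and 75.3% ± 1.4999 for P6 (SD, 2 captures unless stated). Without the second E12.5 capture the E12.5 share was 47.9% ± 9.11. The E13.5 and E16.5 captures overlapped, and at any value above 0 the share was 82.1% for E13.5 and 74.8% for E16.5. Among the cells that had it, the median was 41.7 and 35.3 RPKM in the E11.5 captures, 95.8 and 153 RPKM at E16.5, and 154 and 138 RPKM at P6. Cells with at least 100 RPKM made up 8 of 106 cells at E13.5 (7.55%, exact interval 3.32 to 14.3), 32 of 95 at E16.5 (33.7%, 24.3 to 44.1) and 57 of 121 at P6 (47.1%, 37.97 to 56.4). These intervals cover counting error only, and cells of 1 capture share a chip loading.

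**Figure D1:**
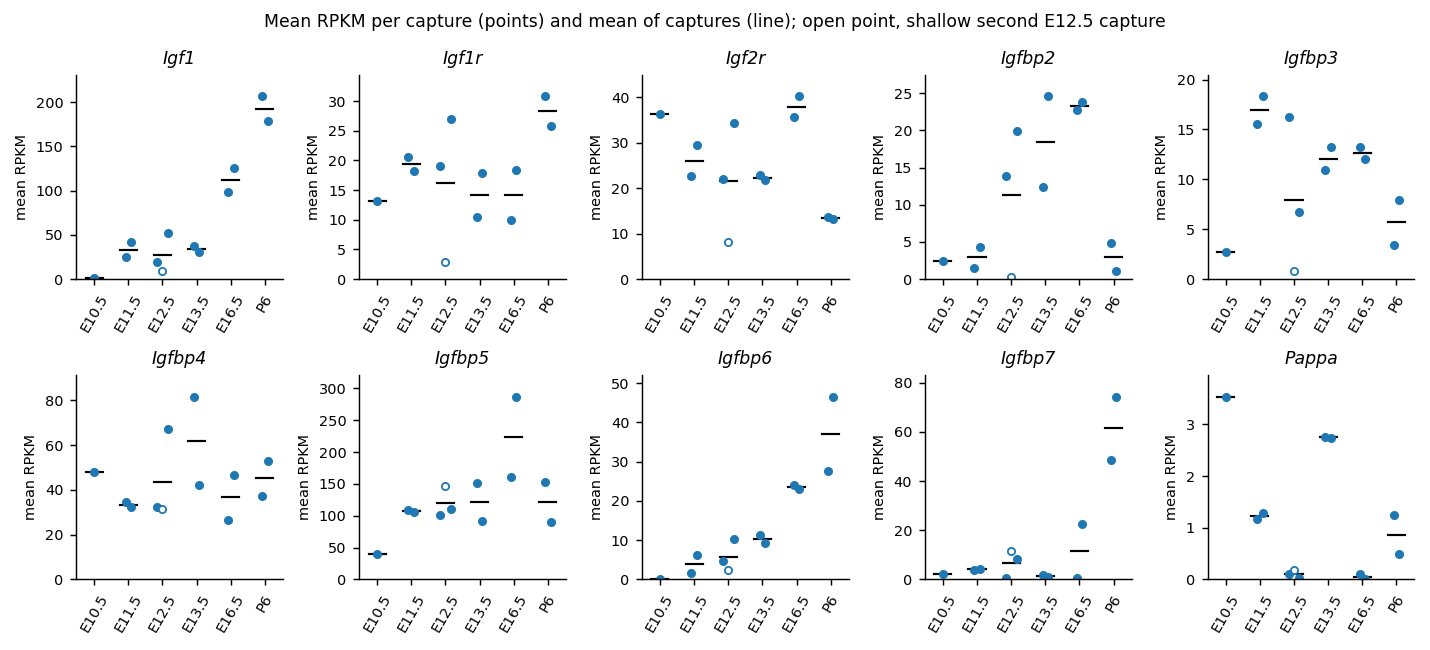
Mean RPKM over the cells of each capture, for the 10 genes, with stage on the x axis; each point is 1 capture, the line is the mean of a stage's captures and the open point is the shallow second E12.5 capture. Both P6 captures of Igf1, at 206 and 178 RPKM, lie above every other point of that panel, and Igf2r at P6 (13.6 and 13.3 RPKM) lies below all its points except the open one.

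Igf1r, the receptor of IGF1, was measured at every stage without a difference that passed the test. Its mean RPKM was 13.1 at E10.5, 20.6 and 18.3 in the E11.5 captures, 18.99, 2.88 and 26.9 in those of E12.5, 10.4 and 17.9 in those of E13.5, 10.0 and 18.4 in those of E16.5, and 30.8 and 25.8 in those of P6. P6 captures lay above the E16.5 captures, by 0.999 ± 0.74 on the log2 scale (SE), with an adjusted p of 0.739. Without the second E12.5 capture, the E12.5 mean was 22.9 ± 5.59 RPKM (SD, n = 2), against 16.3 ± 12.2 with it (n = 3). Igf1r was at or above 1 RPKM in 426 of 662 cells (64.4%).

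Igf2r, the uptake receptor for IGF2, was the member detected in most cells, 592 of 662 (89.4%). Its mean was 36.4 RPKM at E10.5, 22.7 and 29.4 RPKM at E11.5, 21.9, 8.10 and 34.4 RPKM at E12.5, 22.8 and 21.7 RPKM at E13.5, 35.7 and 40.2 RPKM at E16.5, and 13.6 and 13.3 RPKM at P6. Captures at P6 lay below those at E16.5 without overlap, with a difference of -1.43 ± 0.44 on the log2 scale (SE), with an unadjusted p = 0.0143 and an adjusted p of 0.351 in the limma fit. Detection was 83.6% ± 2.57 at P6 and 97.8% ± 0.48 at E16.5 (SD, n = 2 each).

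Detection of ligand and receptor in the same cell was counted at 1 RPKM. At E10.5, 3 of 71 cells had both Igf1 and Igf1r, 50 had Igf1r alone and 18 had neither. At E11.5 39 of 106 cells had both, at E13.5 45 of 106, at E16.5 35 of 95, and at P6 58 of 121 (47.9%). Cells with Igf1 alone were 0 of 71 at E10.5, which allows a share of up to 4.23%, 11 of 106 at E11.5 (10.4%) and 33 of 121 at P6 (27.3%). Cells with Igf1r alone were 23 of 121 at P6 (19.01%) and 44 of 106 at E11.5 (41.5%). Across cells within captures, the mean Pearson r of Igf1 and Igf1r was -0.06 over 11 captures and was positive in 4 of them. It describes sparse values of cells that share a chip loading, and no p is given.

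**Figure D2:**
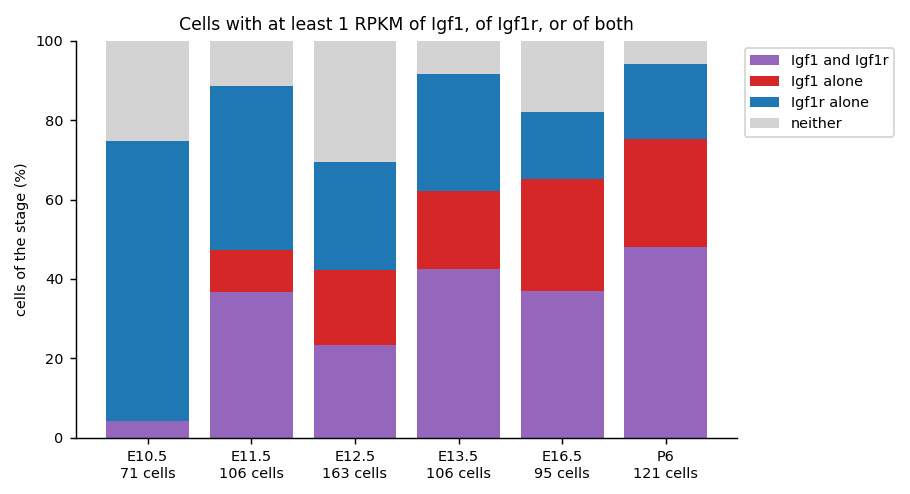
Share of the cells of each stage (y axis, percent) with at least 1 RPKM of both Igf1 and Igf1r, of 1 of them or of neither, by stage (x axis, with the number of cells). Cells with Igf1 alone made up 27.3% at P6 and 0% at E10.5, and cells with Igf1r alone 19.01% at P6 and 70.4% at E10.5.

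Among the binding protein genes, Igfbp5, which encodes a binding protein retained in the extracellular matrix, had the largest summed level at every stage but E10.5, where Igfbp4 was above it. Its mean was 39.4 RPKM at E10.5, 108 and 106 RPKM at E11.5, 101, 147 and 111 RPKM at E12.5, 152 and 91.5 RPKM at E13.5, 161 and 287 RPKM at E16.5, and 154 and 89.6 RPKM at P6. The E16.5 captures were the highest, and the P6 captures lay below both of them, with a difference of -0.87 ± 0.44 on the log2 scale (SE, adjusted p of 0.653). It made up 41.5% of the summed RPKM of the 6 binding protein genes at E10.5, and 63.7% ± 2.59 for E11.5, 61.9% ± 13.2 for the 3 captures of E12.5, 53.3% ± 4.14 for E13.5, 66.99% ± 3.07 for E16.5 and 44.3% ± 16.2 for P6 (SD, 2 captures unless stated), with 54.8% ± 7.07 at E12.5 without the second capture. It was detected in 556 of 662 cells (83.99%).

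Igfbp4, the gene of a binding protein that PAPPA cuts, was detected in 487 of 662 cells (73.6%). Its mean was 48.1 RPKM at E10.5, 34.6 and 32.2 RPKM at E11.5, 32.3, 31.3 and 67.002 RPKM at E12.5, 81.6 and 42.05 RPKM at E13.5, 26.7 and 46.5 RPKM at E16.5, and 37.2 and 52.98 RPKM at P6. Among stages with several captures these ranges overlap, except that E11.5 lay below E13.5 and below P6. The share of cells with it was 94.4% at E10.5, and averaged 91.5% ± 6.67 for E13.5, 62.8% ± 6.59 for E16.5 and 51.97% ± 1.4999 for P6 (SD, n = 2 captures each). Its summed level at P6 was thus held by fewer cells, and the top 5 cells gave 70.5% and 54.5% of its P6 sums.

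Igfbp2 and Igfbp5 lie end to end on chromosome 1, and Igfbp2, which encodes a binding protein with a preference for IGF2, had a different time course. Its mean was 2.49 RPKM at E10.5, 1.54 and 4.32 RPKM at E11.5, 13.9, 0.225 and 19.9 RPKM at E12.5, 12.4 and 24.6 RPKM at E13.5, 22.7 and 23.8 RPKM at E16.5, and 4.85 and 1.13 RPKM at P6. The E13.5 and E16.5 captures lay above all E11.5 and P6 captures. At P6 its difference from E16.5 was -2.78 ± 1.15 on the log2 scale (SE), with an unadjusted p = 0.0452 and an adjusted p of 0.54. Cells with it made up 52.8% ± 5.34 for E13.5, 28.9% ± 5.46 for E16.5 and 8.64% ± 5.79 for P6 (SD, n = 2 captures each). A single cell gave 92.3% of its sum in the second P6 capture. Without the second E12.5 capture its E12.5 mean was 16.9 ± 4.25 RPKM (n = 2), against 11.3 ± 10.1 with it (n = 3).

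Igfbp3 encodes the main IGF carrier of blood and had its widest detection at E11.5 to E13.5. Its mean was 2.72 RPKM at E10.5, 15.5 and 18.3 RPKM at E11.5, 16.2, 0.789 and 6.70 RPKM at E12.5, 10.9 and 13.2 RPKM at E13.5, 13.2 and 12.1 RPKM at E16.5, and 3.46 and 7.97 RPKM at P6. At P6 2 of 55 and 4 of 66 cells had at least 1 RPKM, and the highest cell gave 70.9% and 89.3% of the sum. The P6 mean therefore describes a few cells, and the change from E16.5 did not pass the test (log2 -1.11 ± 0.96, SE, adjusted p of 0.792).

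Igfbp6, whose protein prefers IGF2 over IGF1, had a mean that was highest at P6. It was 0.0211 RPKM at E10.5, in 1 cell, 1.63 and 6.33 RPKM at E11.5, 4.75, 2.27 and 10.2 RPKM at E12.5, 11.3 and 9.18 RPKM at E13.5, 24.1 and 23.1 RPKM at E16.5, and 27.7 and 46.5 RPKM at P6. The E16.5 captures lay above those of E13.5 and the P6 captures above those of E16.5, while E13.5 overlapped E12.5. A single cell of 586 RPKM gave 63.3% of the sum of the second E16.5 capture, which without it averaged 8.70 RPKM, below both full E13.5 means. None of the 3 comparisons of stages passed the test for it, and the F test gave an adjusted p of 0.27 (unadjusted p = 0.0185). It was detected in 11 of 106 cells at E11.5, 19 of 95 at E16.5 and 37 of 121 at P6 (30.5% ± 1.93 over 2 captures, SD).

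Igfbp7 encodes a secreted protein with weak IGF binding. Its mean was 2.14 RPKM at E10.5, 3.75 and 4.30 RPKM at E11.5, 0.449, 11.7 and 8.23 RPKM at E12.5, 1.94 and 1.06 RPKM at E13.5, 0.626 and 22.4 RPKM at E16.5, and 48.7 and 74.3 RPKM at P6. The P6 captures lay above all others, and the 2 E16.5 captures differed widely. A single cell of 2345 RPKM gave 47.8% of the sum of the second P6 capture, which without it averaged 39.3 RPKM. P6 exceeded E16.5 by 3.31 ± 1.38 on the log2 scale (SE), with an unadjusted p = 0.0465 and an adjusted p of 0.544. Cells with at least 20 RPKM, a level chosen after the values were seen, numbered 2 of 71 at E10.5, 5 of 106 at E11.5, 6 of 163 at E12.5, 2 of 106 at E13.5, 5 of 95 at E16.5 and 28 of 121 at P6 (23.1%, exact interval 15.96 to 31.7). Its share of the summed binding protein RPKM was 22.5% ± 6.78 at P6 and 2.83% ± 3.64 at E16.5 (SD, n = 2 each). Polr2b, which overlaps it, averaged 28.6 ± 2.89 RPKM at P6 and 20.4 ± 4.63 RPKM at E16.5 (SD, n = 2 each). Its part in the Igfbp7 values was not tested.

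**Figure D3:**
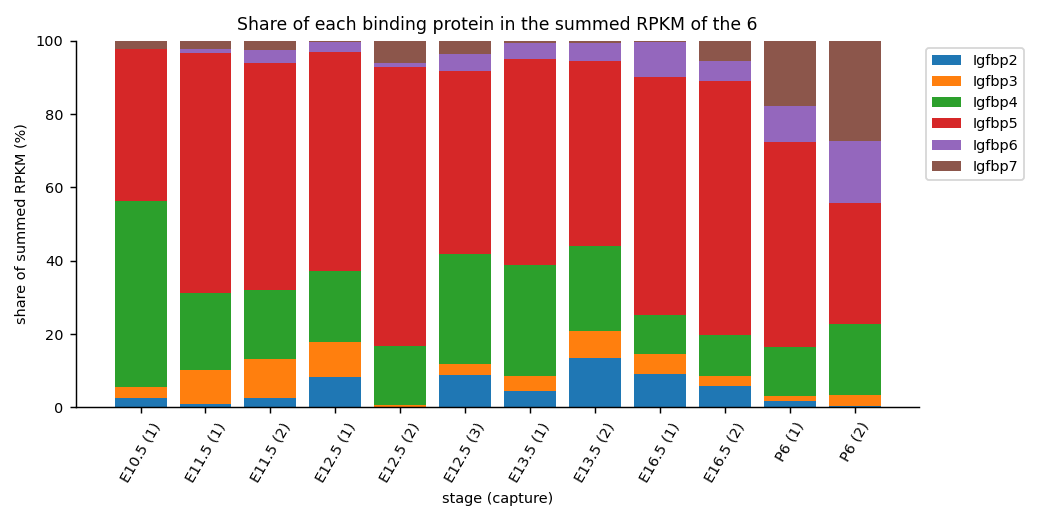
Share of each of the 6 binding protein genes in their summed mean RPKM (y axis, percent) for each capture (x axis, stage with capture number). Igfbp5 held the largest share in each capture except E10.5, where Igfbp4 held 50.7%, and Igfbp7 held 17.7% and 27.3% at P6.

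Pappa, the protease gene, was the least detected member, in 55 of 662 cells (8.31%). Its mean was 3.53 RPKM at E10.5, 1.18 and 1.29 RPKM at E11.5, 0.102, 0.176 and 0.0242 RPKM at E12.5, 2.76 and 2.74 RPKM at E13.5, 0.108 and 0 RPKM at E16.5, and 1.24 and 0.492 RPKM at P6. In the first E13.5 capture 1 cell gave 92.8% of the sum, and the mean without it was 0.203 RPKM. Detection was highest at E10.5, in 23 of 71 cells (32.4%). In the second E16.5 capture 0 of 40 cells had 1 RPKM, which allows a share of up to 7.5%, and in the third E12.5 capture 0 of 57, which allows up to 5.26%. The F test gave an adjusted p of 0.165 (unadjusted p = 0.00719).

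**Figure D4:**
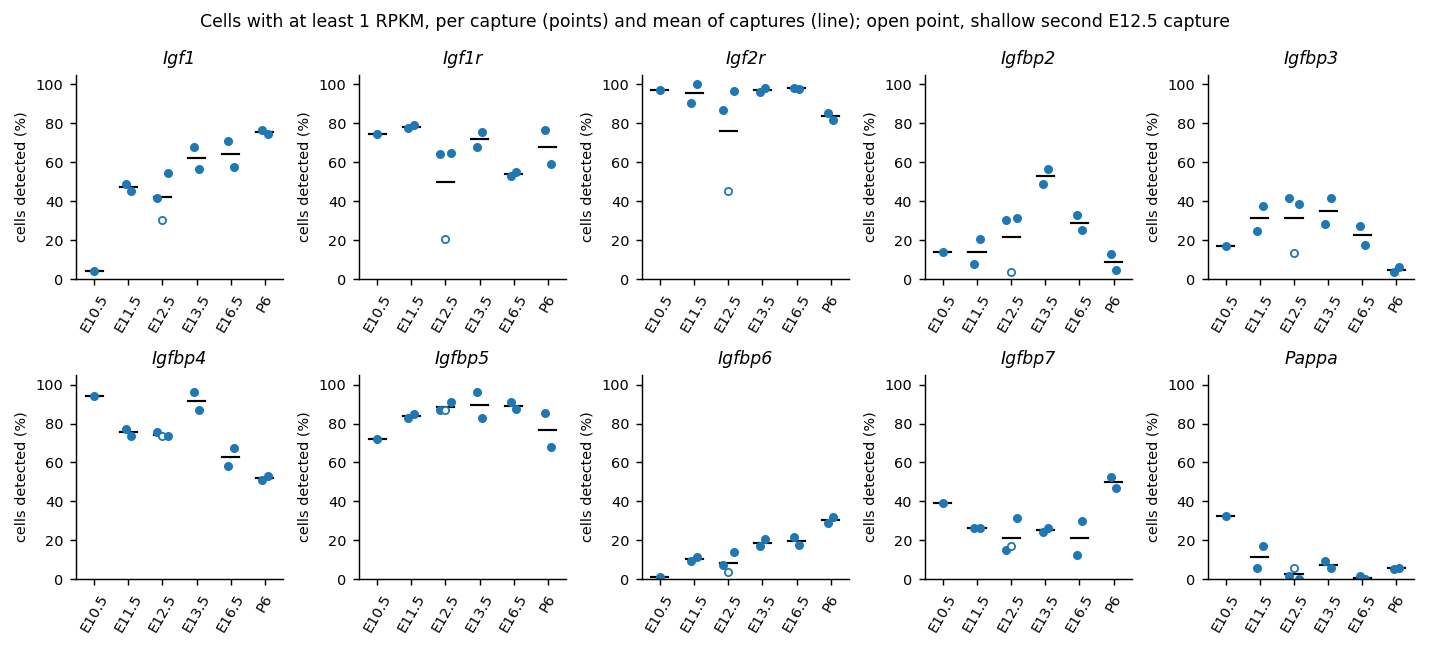
Share of cells with at least 1 RPKM (y axis, percent) by stage (x axis) for the 10 genes; each point is 1 capture, the line is the mean of a stage's captures and the open point is the shallow second E12.5 capture. Igf1 was detected in 76.4% and 74.2% of cells at P6 and in 4.23% at E10.5, and Igf2r in 85.5% and 81.8% at P6 and in 97.2% at E10.5.

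Overlap between captures was read for neighbours in the order only. In RPKM, which allows levels of different genes to be set beside each other per length, the order of the members changed with stage. At E11.5 the order was Igfbp5, Igf1, Igfbp4, Igf2r, Igf1r, Igfbp3, Igfbp7, Igfbp6, Igfbp2 and Pappa, where the captures of these neighbours in the order overlapped: Igf1 and Igfbp4, Igf1r and Igfbp3, Igfbp7 and Igfbp6, and Igfbp6 and Igfbp2. At E16.5 it was Igfbp5, Igf1, Igf2r, Igfbp4, Igfbp6, Igfbp2, Igf1r, Igfbp3, Igfbp7 and Pappa, with overlaps between Igf2r and Igfbp4, Igfbp6 and Igfbp2, Igf1r and Igfbp3, and Igfbp3 and Igfbp7. At P6 it was Igf1, Igfbp5, Igfbp7, Igfbp4, Igfbp6, Igf1r, Igf2r, Igfbp3, Igfbp2 and Pappa. There Igf1 did not overlap Igfbp5, and Igfbp7 overlapped Igfbp4, Igfbp4 overlapped Igfbp6, Igfbp6 overlapped Igf1r, Igfbp3 overlapped Igfbp2 and Igfbp2 overlapped Pappa.

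The split by class compared Foxl2-positive with Nr2f2-positive cells. Of 149 Foxl2-positive cells (at least 1 RPKM), 125 also had at least 1 RPKM of Nr2f2 (83.9%), so cells with Foxl2 and without Nr2f2 reached 5 in only 2 captures. Foxl2-positive cells were therefore taken whatever their Nr2f2, and Nr2f2-positive cells were those with Nr2f2 and under 1 RPKM of Foxl2, a choice made after the class sizes were seen. At least 5 cells of each were present in 8 captures: 2 at E12.5, and both at E13.5, E16.5 and P6, with 7 to 41 Foxl2-positive and 16 to 50 Nr2f2-positive cells. Up to E16.5 Foxl2-positive cells had more of the pregranulosa markers Fst, Irx3 and Wnt4 than Nr2f2-positive cells in each of these 6 captures, for example 79.9 and 26.3 RPKM of Fst against 27.2 and 16.1 RPKM at E16.5. Lgr5, another marker of that list, was lower in Foxl2-positive cells in both E13.5 captures, and Runx1 was level in the first E16.5 capture (10.77 against 10.79 RPKM). The stroma marker Dcn was higher in Foxl2-positive cells of the second E16.5 capture (404 against 189 RPKM), and Tcf21 in those of the third E12.5 capture (101 against 41.8 RPKM), while Lum, Pdgfra and Col1a1 were lower in Foxl2-positive cells in all 8 captures. At P6 both classes held stromal and granulosa markers. Dcn, a proteoglycan gene of stroma, was 606 and 1134 RPKM in Foxl2-positive cells, against 473 and 970 RPKM in Nr2f2-positive cells, while Lum, another stroma marker, was 168 and 186 RPKM, against 185 and 582 RPKM, and Tcf21 was also lower in Foxl2-positive cells of both P6 captures. Inha, the inhibin alpha gene of granulosa cells, was 2081 and 1064 RPKM, against 781 and 243 RPKM. The classes are thus groups by 2 transcripts and not cell types. Foxl2-positive cells also had more detected genes per cell in 8 of 8 captures, by 136 to 1260 in the median, and the part of this in the splits was not tested.

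No member passed the test of the split over the 8 captures, where 2 of 19601 genes were called (0.0102%), both higher in Foxl2-positive cells, and 1688 had an unadjusted p under 0.05 (8.61%). Of the 10 members, 9 had a negative log2 difference, that is lower in Foxl2-positive cells, with a median of -0.38, beside a median of -0.13 over all genes tested. Of 32 other IGF pathway genes tested, 25 were also negative, with a median of -0.53. Igf1 averaged 78.996 ± 73.1 RPKM in Foxl2-positive cells and 113 ± 93.7 RPKM in Nr2f2-positive cells (SD over 8 captures), a log2 difference of -0.48 ± 0.39 (SE, adjusted p of 0.758). Its mean was lower in Foxl2-positive cells in 6 of 8 captures. With Foxl2-positive cells restricted to those without Nr2f2, 2 captures could be used, 9 members were tested with 1 residual degree of freedom, all 9 were lower in Foxl2-positive cells and none was called, while 76 of 14774 genes were (0.514%), 19 higher (0.129%) and 57 lower (0.386%) in Foxl2-positive cells. The median of these 9 differences was -1.36, beside -0.48 over all genes and -1.07 over 29 other pathway genes, of which 23 were negative.

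By stage the split of Igf1 ran as follows. At E12.5 it was 59.3 and 44.5 RPKM in Foxl2-positive cells, against 12.8 and 52.7 RPKM in Nr2f2-positive cells, with opposite directions of the means in the 2 captures. The mean of 52.7 RPKM, of the third E12.5 capture, held 1 cell of 1030 RPKM and was 32.7 RPKM without it. Without their own highest cell, Foxl2-positive cells of that capture averaged 28.6 RPKM. Its class medians were 35.5 RPKM in Foxl2-positive and 1.51 RPKM in Nr2f2-positive cells. Its mean was 14.9 and 22.3 RPKM in Foxl2-positive cells of E13.5, against 50.3 and 31.9 RPKM in Nr2f2-positive cells. At E16.5 it was 73.4 and 30.8 RPKM in Foxl2-positive cells, against 118 and 172 RPKM in Nr2f2-positive cells. At P6 it was 198 and 189 RPKM in Foxl2-positive cells, against 285 and 178 RPKM in Nr2f2-positive cells. Foxl2-positive cells had lower means in both captures at E13.5 and E16.5, and the P6 classes overlapped. The second E13.5 capture had a median of 9.41 RPKM in Foxl2-positive and 1.59 RPKM in Nr2f2-positive cells. Its detection was 64.3% and 51.4%, also higher in Foxl2-positive cells. The log2 difference at E16.5 was -1.56 ± 0.65 (SE), with an unadjusted p = 0.0384 and an adjusted p of 0.543 in the limma fit, and at P6 -0.22 ± 0.65 (adjusted p of 1.0). No gene was called at E13.5, E16.5 or P6 (0.0% each), with 829, 1735 and 1448 of 19601 genes at an unadjusted p under 0.05. At E16.5 the differences of all 10 members were negative, with a median of -1.43, beside -0.03 over all genes, and at P6 4 were negative. At E16.5 Igfbp4 and Igfbp7 were each higher in Foxl2-positive cells in 1 of 2 captures, and Pappa was detected in 1 cell only. Of 32 other pathway genes, 21 were negative at E16.5, with a median of -0.40, and 19 at P6.

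Both class genes were found in 63 of all 121 cells at P6 (52.1%). Of the 91 cells with Igf1, 54 had Foxl2 and Nr2f2 (59.3%), 29 Nr2f2 alone, 5 Foxl2 alone and 3 neither. Of the cells with both, 54 of 63 had Igf1 (85.7%, exact interval 74.6 to 93.3), of those with Nr2f2 alone 29 of 38 (76.3%, 59.8 to 88.6), and of those with Foxl2 alone 5 of 12 (41.7%, 15.2 to 72.3). At E16.5, Igf1 was found in 46 of 63 cells with Nr2f2 alone (73.02%), 6 of 15 with both (40.0%) and 5 of 8 with Foxl2 alone (62.5%). These counts pool cells of 2 captures per stage and were not tested.

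The split of Igfbp5 had opposite directions at different stages, without passing a test. At E12.5 it was 126 and 231 RPKM in Foxl2-positive cells, against 96.1 and 94.4 RPKM in Nr2f2-positive cells. At E13.5 it was 102 and 50.2 RPKM in Foxl2-positive cells, against 185 and 116 RPKM in Nr2f2-positive cells. At E16.5 it was 31.7 and 163 RPKM in Foxl2-positive cells, against 223 and 349 RPKM in Nr2f2-positive cells, and at P6 136 and 84.7 RPKM in Foxl2-positive cells, against 56.9 and 59.1 RPKM in Nr2f2-positive cells. Over the 8 captures the mean of Foxl2-positive cells was higher in 4 and lower in 4, with a mean log2 difference of -0.31. By stage it was lower in both captures of E13.5 and of E16.5 and higher in both of E12.5 and of P6. Medians followed except in the second E13.5 capture, at 38.6 RPKM in Foxl2-positive against 24.7 RPKM in Nr2f2-positive cells, and the first P6 capture, at 28.4 against 28.7 RPKM. The E16.5 difference was -1.94 ± 0.46 (SE, unadjusted p = 0.002, adjusted p of 0.311). The difference of the P6 split from the E16.5 split was 2.81 ± 0.65 on the log2 scale (SE), with an unadjusted p = 0.00168 and an adjusted p of 0.51, and no gene passed that test (0.0%, with 1394 of 19601 at an unadjusted p under 0.05).

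For the receptors, Igf1r was 2.09 and 14.9 RPKM in Foxl2-positive cells of E16.5, against 14.2 and 21.1 RPKM in Nr2f2-positive cells, and 34.3 and 25.7 RPKM in Foxl2-positive cells of P6, against 17.05 and 24.99 RPKM in Nr2f2-positive cells. Igf2r was lower in Foxl2-positive cells in 6 of 8 captures, for example 19.1 and 17.6 RPKM against 40.3 and 52.1 RPKM in Nr2f2-positive cells at E16.5. The log2 differences at E16.5 were -1.39 ± 0.66 for Igf1r (adjusted p of 0.569) and -1.28 ± 0.59 for Igf2r (adjusted p of 0.562). Neither receptor passed the test at E13.5, E16.5 or P6, and the split at E12.5 was not tested by itself.

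Of the other binding proteins, Igfbp7 at P6 was 39.2 and 47.05 RPKM in Foxl2-positive cells, against 84.3 and 135 RPKM in Nr2f2-positive cells, a log2 difference of -1.29 ± 0.72 (SE, adjusted p of 0.729). That order rested on 1 cell in the second P6 capture: without the cell of 2345 RPKM its Nr2f2-positive mean was 29.7 RPKM, below that of Foxl2-positive cells, and the class medians were 0.951 RPKM in Foxl2-positive and 0.67 RPKM in Nr2f2-positive cells. Igfbp2 was lower in Foxl2-positive cells in both captures of E13.5 and of E16.5, at 18.3 and 0.173 RPKM against 28.2 and 34.9 RPKM in Nr2f2-positive cells at E16.5. The means of Igfbp3 and Igfbp6 were also lower in Foxl2-positive cells in both captures of E13.5 and of E16.5, and each was higher in 1 of 2 captures at E12.5 and at P6. Detection did not always follow. In the second E13.5 capture Igfbp6 was in 35.7% of Foxl2-positive and 17.1% of Nr2f2-positive cells, and Igfbp3 in 42.9% of each. Igfbp4 was lower in Foxl2-positive cells in 6 of 8 captures, with a mean of 41.1 ± 19.2 RPKM in Foxl2-positive cells and 54.8 ± 18.8 RPKM in Nr2f2-positive cells (SD over 8 captures). Pappa was near 0 in both classes, with a mean of 1.27 ± 2.81 RPKM in Foxl2-positive cells and 0.92 ± 1.505 RPKM in Nr2f2-positive cells.

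**Figure D5:**
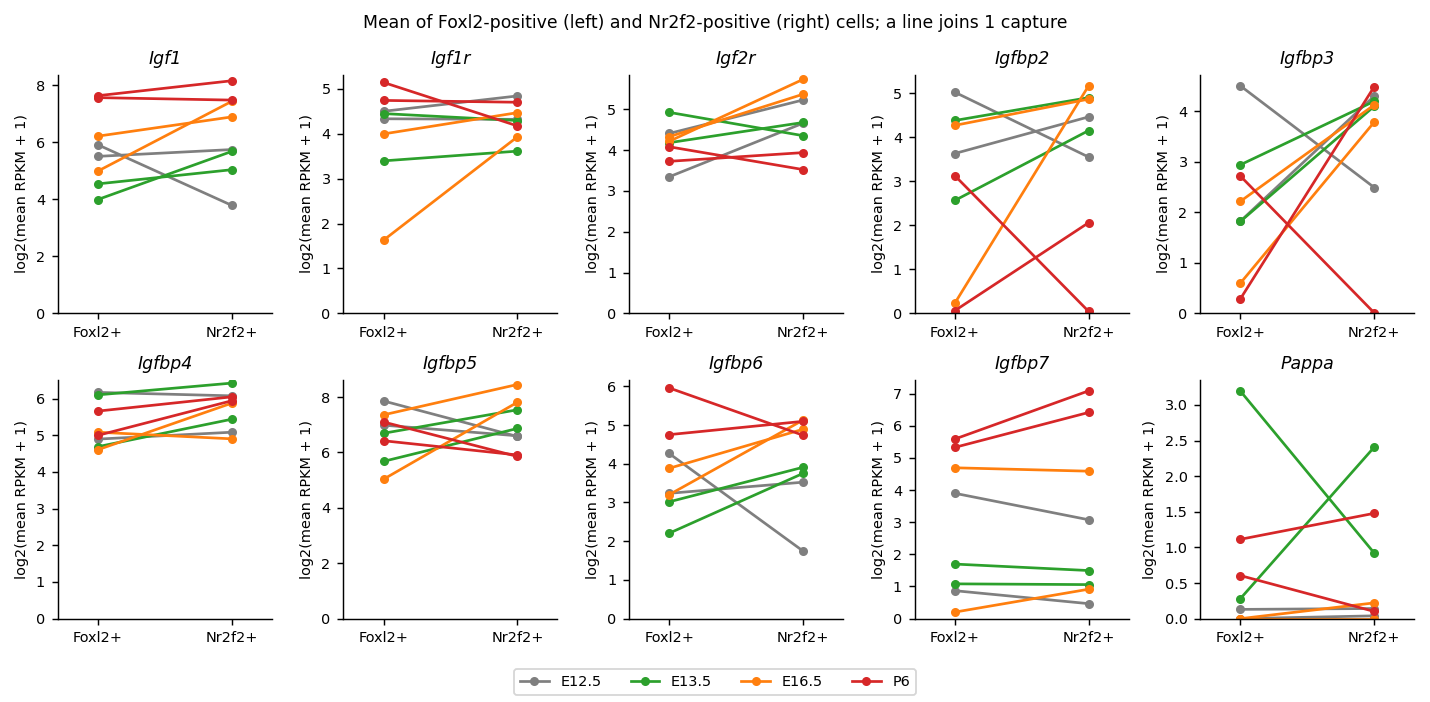
Level on the log2(mean RPKM + 1) scale (y axis) in Foxl2-positive cells (left) and Nr2f2-positive cells (right) for the 10 genes; each line joins the classes of 1 of 8 captures and its colour gives the stage. In the Igfbp5 panel the lines of E13.5 and E16.5 run upward to the right and those of E12.5 and P6 downward, and in the Igfbp7 panel the P6 lines join 39.2 and 47.05 RPKM in Foxl2-positive cells with 84.3 and 135 RPKM in Nr2f2-positive cells, the last of which was 29.7 RPKM without 1 cell.

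Within a class, P6 was set against E16.5. In Nr2f2-positive cells 41 of 19445 genes were called (0.211%), 23 higher at P6 (0.118%) and 18 lower (0.0926%), and none was a member. Igfbp5 came closest, with a P6 difference of -2.25 ± 0.38 on the log2 scale (SE, adjusted p of 0.0769), with 56.9 and 59.1 RPKM at P6 against 223 and 349 RPKM at E16.5, which do not overlap. Igfbp7 was 84.3 and 135 RPKM at P6, against 0.886 and 23.04 RPKM at E16.5 (log2 3.999 ± 1.24, SE, adjusted p of 0.276), where the 135 RPKM fell to 29.7 RPKM without 1 cell. Igfbp2 was 0.0317 and 3.17 RPKM at P6, against 28.2 and 34.9 RPKM at E16.5 (log2 -3.96 ± 1.16, adjusted p of 0.247). In Foxl2-positive cells no gene of 17227 was called (0.0%, with 1800 at an unadjusted p under 0.05), and Igf1 was 198 and 189 RPKM at P6, against 73.4 and 30.8 RPKM at E16.5 (log2 1.998 ± 0.50, SE, unadjusted p = 0.0114, adjusted p of 0.304). Igfbp6 in Foxl2-positive cells was 25.9 and 61.1 RPKM at P6, against 8.19 and 13.7 RPKM at E16.5 (adjusted p of 0.43). Its E16.5 values rested on 1 of 12 and 2 of 11 cells. Without the highest cell of each class the means were 14.7 and 48.7 RPKM at P6, against 0 and 4.40 RPKM at E16.5.

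Of 35 other genes of the pathway, 32 were tested over stages and 2 were called by the F test, against 1.37% of all genes, Igf2 (adjusted p = 0.0146) and Igf2bp3 (adjusted p = 0.0492). Without the E10.5 capture the adjusted p of Igf2 was 0.0508. Igf2, the gene of the second IGF ligand, which is expressed mainly before birth, averaged 132 RPKM at E10.5, 83.8 ± 17.3 RPKM for E11.5, 71.8 ± 24.8 RPKM for the 3 captures of E12.5, 69.5 ± 3.17 RPKM for E13.5, 46.1 ± 7.90 RPKM for E16.5 and 2.34 ± 0.91 RPKM for P6 (SD, 2 captures unless stated). It fell at P6 relative to E16.5, with a difference of -3.84 ± 0.31 on the log2 scale (SE, adjusted p = 0.011). The call was lost in 1 sequencing series alone (adjusted p of 0.455). Igf2 was the only gene of the 32 called there, where 17 of all genes tested were lower (0.0863%). At E11.5 against E10.5 and at E13.5 against E11.5, 0 of the 32 were called, and their median log2 differences were 0.04 and 0.08, beside 0.00 and 0.01 over all genes. Igf2bp3, which encodes an RNA-binding protein of fetal cells named for Igf2 transcripts, averaged 70.4 RPKM at E10.5, 13.8 ± 4.03 RPKM at E16.5 and 0.854 ± 0.849 RPKM at P6 (SD, n = 2 each). Insr, the insulin receptor gene, had stage means of 2.25 to 5.60 RPKM and was not called.

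At P6 6 of the 91 cells with Igf1 also had Igf2 (6.59%), and at E16.5 46 of 62 did (74.2%). In the split, Igf2 at P6 was 0.749 and 0.116 RPKM in Foxl2-positive cells, against 8.66 and 4.87 RPKM in Nr2f2-positive cells, a log2 difference of -2.43 ± 0.50 (SE, unadjusted p = 0.000777, adjusted p of 0.33). At P6 Igf2 was detected in 2 of 34 and 1 of 41 Foxl2-positive and 3 of 16 and 2 of 22 Nr2f2-positive cells. All these class medians were 0, so the means describe a few cells. In no split was a pathway gene called.

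The genes whose values across cells within captures were most like those of the members gave weak likeness only. The highest mean Pearson r was 0.31 for Igf1, with the pseudogene Gm9625 over 11 captures, followed by Rplp0 at 0.29, a ribosomal protein gene. For Igfbp7 it was Polr2b at 0.23 over 12 captures, positive in all of them, the gene that shares exon bases with it. For Igfbp2 it was Tnfrsf19 (0.245, 9 captures), for Igfbp3 Dab2 (0.276, 10 captures) and for Igfbp5 Mdk (0.239, 12 captures). Cells of a capture share depth and chip loading, so these values are a description and no finding is drawn from them.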

How the data were processed

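Single cells were measured by full-length SMARTer cDNA sequencing after C1 capture, per the labels' protocols. The authors' deposited values carry no unit name and were taken as RPKM. Their unit was judged from the values: a median of 72.5% of low values per cell, times gene length, lay within 0.02 of a whole number of reads. Reads were not recovered and no count test was run. The builds GRCm38.p3 and mm10 are given by the submitters' processing notes; for the aligner, counter and use of strand, the labels name none. Of 43347 names, 27 had become dates and were left out. A repeat library of 1 cell (r = 0.996 with the first) was averaged, which left 662 cells. No cells were removed and no doublet caller was run.

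Capture means over cells, as log2(RPKM + 1), were fitted with limma 3.58.1 (R 4.3.3) on stage and sequencing series with an intensity trend, 5 residual degrees of freedom, on genes whose highest capture mean was 1 RPKM or more, with Benjamini-Hochberg adjustment at 0.05. Splits by class used class means with capture as a block and at least 5 cells per class. The stricter class written in the design, Foxl2 without Nr2f2, left 2 captures, so its tests by stage, its test of the P6 split against the E16.5 split and its P6 test within Foxl2-positive cells could not be fitted. A replicate is a capture; no label ties captures to litters or animals, so the p-values cover variation from capture to capture, part of which can be technical. The genes, lists and markers were chosen with earlier results of these data known, and all 10 members are reported in each comparison, with Igf2, Insr and the called pathway genes of lowest adjusted p. The fits were tested on simulated data. Detection means at least 1 RPKM, intervals are exact Clopper-Pearson at 95%, and a 0 is read against 3 counts. Alternatives were other pseudocounts, filters, scalings, class cutoffs, stage in place of the capture block, and leaving out each capture; means without the highest cell of a capture or class, values with no test, were added after seeing the data.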

Additional observations from a re-analysis of the deposited data

Results flagged for a closer look

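Every member and every pair of stages of the split was screened for class means that ran in opposite directions in all captures. With 2 captures per stage such reversals can also arise from random directions, and their number was not tested against that. The split of Igfbp5 means between Foxl2-positive and Nr2f2-positive cells ran in opposite directions in every capture of some pairs of stages. The class medians did not follow the means in the second E13.5 and the first P6 capture. The mean log2 split moved by -1.85 at E13.5 against E12.5, by -2.77 at E16.5 against E12.5, by 1.90 at P6 against E13.5 and by 2.81 at P6 against E16.5. The last of these was tested and did not pass (adjusted p of 0.51, limma), and the other 3 were not tested. Igf1r was lower in Foxl2-positive cells in both captures of E16.5 and higher in both of P6, a move of 1.89 (adjusted p of 0.732). The classes of the second P6 capture were nearly level, at 25.7 RPKM in Foxl2-positive against 24.99 RPKM in Nr2f2-positive cells. Their medians were 4.70 against 5.41 RPKM, and their means without the highest cell of each class 20.7 against 21.1 RPKM. Igfbp7 was higher in Foxl2-positive cells in both captures of E12.5 and of E13.5 and lower in both of P6, a move of -1.91 at P6 against E12.5 and of -1.41 at P6 against E13.5. These 2 differences were not tested, and the direction in the second P6 capture rested on 1 cell of 2345 RPKM: without it Nr2f2-positive cells averaged 29.7 RPKM, below the 47.05 RPKM of Foxl2-positive cells. The E13.5 direction of Igfbp7 was also weak, with log2 differences of 0.20 and 0.02 in its 2 captures. Without the highest cell of each class, Foxl2-positive cells averaged 0.603 and 0.665 RPKM at E13.5. Nr2f2-positive cells then averaged 1.02 and 0.706 RPKM, so the direction was reversed in both E13.5 captures. The same step left Igfbp7 higher in Foxl2-positive cells in both E12.5 captures. Each stage has 2 captures in the split.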

How the results depend on the processing

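Few captures, 1 at E10.5, and depth in the second E12.5 capture limit the results. No paired analysis was possible because, between stages, capture numbers only order the captures of a stage and tie no captures to each other; the splits by class are paired within captures by the capture block, and the alternative to it put the stage in place of the capture. Of the alternative counts of called genes, 186 stayed within 1.5 times and 90 moved; of the single genes, 3262 values kept their side of the threshold, 18 lost a call and 12 gained one. Of 3052 alternative log2 differences of members, Igf2 and Insr, 96 had the other sign, in 49 of 131 results, none of them a result called in any of these fits. Of the detection shares under other cutoffs 73 moved and 47 did not: Igfbp7 at E10.5 was 67.6% at any value above 0 and 8.45% at 5 RPKM, and Pappa there 46.5% and 14.1%. The causes were not tested. Counts for E11.5 against E10.5 were 1003 with no filter, 1 with at least 1 RPKM in 2 captures, 445 with means of log2 values, 95 with no series term, 25 with no intensity trend and 0 in 1 sequencing series alone, and 73 to 388 when each capture was left out. Counts for E13.5 against E11.5 were 48 with no filter and 6 with means of log2 values, and 0 to 219 without single captures. Counts for P6 against E16.5 were 102, 128 and, in 1 series alone, 0, and 19 to 369 without single captures. Over stages they were 1509 with no filter, 15 with at least 1 RPKM in 2 captures, 489 with means of log2 values and 8 with no trend, 1 without E10.5 and 1412 without the first E12.5 capture. For the strict split they were 50 with a pseudocount of 5, 0 with no filter, 0 with at least 1 RPKM in 2 captures and classes, 34 with classes at 5 RPKM, 45 with at least 3 cells and 46 with no trend, and 76 to 76 without single captures, each of which lay outside this fit of 2 captures, so that the count could not move; nor could it with the stage in place of the capture, since its 2 captures are of different stages. For the reported split they were 0 with a pseudocount of 5, 0 with no filter, 132 with means of log2 values, 4 with classes at any value above 0, 6 with stage in place of capture, 0 with no trend and 205 with classes set by the median of Nr2f2 (chosen after seeing the data), and 0 to 12 without single captures. By stage they were 9 (E13.5), 9 (E16.5) and 10 (P6) with no filter, and 17 (E16.5) and 14 (P6) with stage in place of capture; without single captures they were 0 to 0, 0 to 0 and 0 to 119. The P6 split against the E16.5 split gave 10 with no filter and 0 to 0 without single captures. Within Nr2f2-positive cells they were 169 with a pseudocount of 0.1, 74 with no filter, 69 with at least 1 RPKM in 2 captures and classes, 66 with means of log2 values, 124 with no series term and 136 with no trend, and 0 (without the second E13.5 capture) to 381. Within Foxl2-positive cells they were 3 with at least 10 cells and 5 with no series term, and 0 to 557, with 419 without the first and 557 without the second P6 capture. Igf1 kept its call at E11.5 against E10.5 in 16 of 20 alternatives.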
